A study of Homo sapiens with 12 samples.

Results

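The 10 genes described here encode the 5 subunits of the transcription factor NF-kB (NFKB1, NFKB2, RELA, RELB and REL), the inhibitors of the IkB family NFKBIA, NFKBIB and NFKBIE, the IkB-related coregulator BCL3, and the feedback inhibitor TNFAIP3. They were chosen by gene symbol from the 60671 genes of the deposited expression table, and each symbol was found. Of the 10, 7 reached the minimum level for testing, a mean of at least 1 FPKM over all libraries, which 11591 genes of the table reached. FPKM divide the fragments of a gene by its length and by the size of the library, so that levels of different genes can be compared.

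NF-kB subunits pair with each other and are held in the cytoplasm by IkB proteins until the IkB kinase (IKK) complex marks the IkB proteins for degradation. The released dimers enter the nucleus and bind short kappaB sites near their target genes, and those targets include the genes of the IkB proteins and of TNFAIP3, which closes negative feedback loops. In lymphocytes the pathway is best known for antigen receptor and TNF receptor signalling and for the expression of survival genes.

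The study asked which molecules accompany the effect of the phosphatase PTPN21 on apoptosis caused by vincristine (VCR), a drug that blocks microtubule assembly. RNA was sequenced from cells labelled as the human T cell leukemia line Jurkat in 4 groups of 3 libraries, all treated for 48 h. The groups were control cells with the solvent DMSO (NC+DMSO), control cells with VCR (NC+VCR), PTPN21-overexpressing cells with DMSO (PTPN21+DMSO) and PTPN21-overexpressing cells with VCR (PTPN21+VCR). Overexpression was driven by the SFFV promoter of a lentiviral vector that carried FLAG-tagged PTPN21. The study describes its control cells as carrying the GFP vector, while the sample labels call them wild type, and the VCR dose of the sequenced cells is not given in the sources used here. Whether the 3 libraries of a group came from separate cultures is not said, so the p-values below measure only the spread between these libraries. With RNA from whole cultures, fewer cells that express a gene and less RNA of that gene per cell cannot be told apart.

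PTPN21 itself checked the construct labels, at 0.0638 ± 0.0378 FPKM (SD, n = 3) in NC+DMSO, 0.367 ± 0.205 in NC+VCR, 8.82 ± 1.48 in PTPN21+DMSO and 5.74 ± 1.21 in PTPN21+VCR. Most of the markers went against the cell line label: of 12 T cell and Jurkat marker genes, only CD3D, TRBC1 and TAL1 averaged at least 1 FPKM, LCK, CD28 and CD247 were listed at 0 in all 12 libraries, and CD3E reached at most 0.146. HBG1, GATA1 and KRT8, noticed after their values were seen, lay at 187.8 to 709.1, 13.5 to 106.5 and 236.4 to 1186 FPKM. On the other side, CD3D, a chain of the T cell receptor complex, lay at 61.8 to 139.7 FPKM and the leukocyte gene PTPRC, also noticed afterwards, at 8.07 to 33.1. The libraries are therefore called by their labels, with no cell type named, and what this means for the NF-kB genes was not tested. The summed T cell markers ran from 77.0 to 109.6 FPKM in NC+DMSO, 115.3 to 142.4 in NC+VCR, 131.2 to 162.3 in PTPN21+DMSO and 112.3 to 119.7 in PTPN21+VCR. Most of this sum was CD3D, with means of 79.3, 122.6, 130.2 and 109.4 FPKM in that order, so the sum does not describe the marker list as a whole. TAL1 averaged 12 ± 0.357 FPKM in NC+DMSO, 4.69 ± 1.29 in NC+VCR, 13.8 ± 2.61 in PTPN21+DMSO and 4.50 ± 0.595 in PTPN21+VCR. The 5 myeloid markers summed to 10.1 to 20.4 FPKM over the 4 groups, with LYZ and ITGAM as the 2 that averaged at least 1, and none of the 7 B cell markers averaged 1. Relative depth was estimated from the steps in the low nonzero values among 8702 single-exon genes and set to 1 in the shallowest library. It was 1 to 1.13 in NC+DMSO, 1.16 to 1.24 in NC+VCR, 1.56 to 1.66 in PTPN21+DMSO and 1.42 to 1.54 in PTPN21+VCR. The estimate is rough, since only 37.7 to 48.7% of the values used in a library lay near a whole step. For a step fixed in advance, 20% would do so by chance. The step was chosen to give the highest share, and the chance share for such a choice was not computed. By this estimate depth and construct cannot be told apart, and the absolute depth was not settled.

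Since several of these genes are textbook targets of NF-kB, the 300 bases around their start sites (250 before and 50 after, RefSeq, build GRCh38.p14) were searched on both strands. The table held 13 such windows for 8 of the genes. RELB and NFKBIE were not among them. A wide motif, GGG and then CC after any 5 bases, was in all 13 windows, but also in 58.7% of the 35116 windows of all genes. The stricter kappaB consensus of 10 letters, added after the wide motif and overlapping with it, was in 8 of the 13 windows and in at least 1 window of 7 of the 8 genes, all except RELA. It was in 5.91% of all windows. A site is shown for each of these 7 genes, and the pair of sites for TNFAIP3, because such sites are the textbook route by which NF-kB acts on the genes of its own regulators. Each line gives 30 bases, 5′ to 3′ on the strand of the gene, with the match in capitals.
REL, chr2:60881517-60881546, plus strand: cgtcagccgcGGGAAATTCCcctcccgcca
NFKB1, chr4:102501300-102501329, plus strand: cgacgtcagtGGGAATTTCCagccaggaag
NFKB2, chr10:102394461-102394490, plus strand: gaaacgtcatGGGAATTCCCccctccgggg
NFKBIA, chr14:35404811-35404840, minus strand: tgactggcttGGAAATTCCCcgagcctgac
NFKBIB, chr19:38899931-38899960, plus strand: gggcgtggtgGGGAATTTCCcgcagggcgg
TNFAIP3, chr6:137867182-137867211, plus strand: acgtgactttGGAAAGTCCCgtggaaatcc
TNFAIP3, chr6:137867194-137867223, plus strand: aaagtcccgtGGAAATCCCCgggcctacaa
BCL3, chr19:44748700-44748729, plus strand: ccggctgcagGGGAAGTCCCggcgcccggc

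The match of NFKBIA began 81 bases before its start site, those of TNFAIP3 67 and 55 bases before, that of REL 47, that of NFKB1 49, that of NFKB2 107 and that of NFKBIB 28 bases before. The match of BCL3 lay just after the start, from base 3. The NFKB2 match shown reads the same on both strands. NFKBIA and TNFAIP3 differed in opposite directions under VCR in PTPN21 cells below, while neither passed the test in control cells. For both, the whole 250 bases before the start site are given, again with the matches in capitals.
NFKBIA, chr14:35404750-35404999, minus strand: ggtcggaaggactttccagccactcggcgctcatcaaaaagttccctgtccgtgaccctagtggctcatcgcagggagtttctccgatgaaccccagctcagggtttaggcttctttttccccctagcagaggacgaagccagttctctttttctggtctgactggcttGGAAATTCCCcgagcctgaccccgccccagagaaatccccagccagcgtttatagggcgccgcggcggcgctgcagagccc
TNFAIP3, chr6:137867009-137867258, plus strand: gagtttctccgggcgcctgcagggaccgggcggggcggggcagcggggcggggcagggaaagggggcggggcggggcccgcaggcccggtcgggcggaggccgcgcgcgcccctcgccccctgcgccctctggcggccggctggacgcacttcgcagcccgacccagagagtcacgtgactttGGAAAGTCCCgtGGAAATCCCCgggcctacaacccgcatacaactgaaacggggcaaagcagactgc
NFKBIA held 1 match in its window and TNFAIP3 held 2. These matches are letters in the reference genome, and no binding was measured.

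Among the subunits, RELA and NFKB2 made up most of the NF-kB message. RELA encodes the main transactivating subunit of the canonical pathway and averaged 15.1 FPKM over the 12 libraries. NFKB2, whose precursor is processed in the non-canonical pathway, averaged 13.4 FPKM. NFKB1, the usual partner of RELA, averaged 1.38 FPKM, while RELB, the partner of the processed NFKB2 product, averaged 0.549 and REL, the subunit most tied to lymphoid cells, averaged 0.423. RELA took 32.2 to 66.8% and NFKB2 29.7 to 58.4% of the summed subunit FPKM of a library. NFKB1 took 0.542 to 8.5%, RELB 0.0894 to 3.95% and REL 0.268 to 3.25%. The plot of stacked subunit levels shows this make-up in each library.

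**Figure D1:**
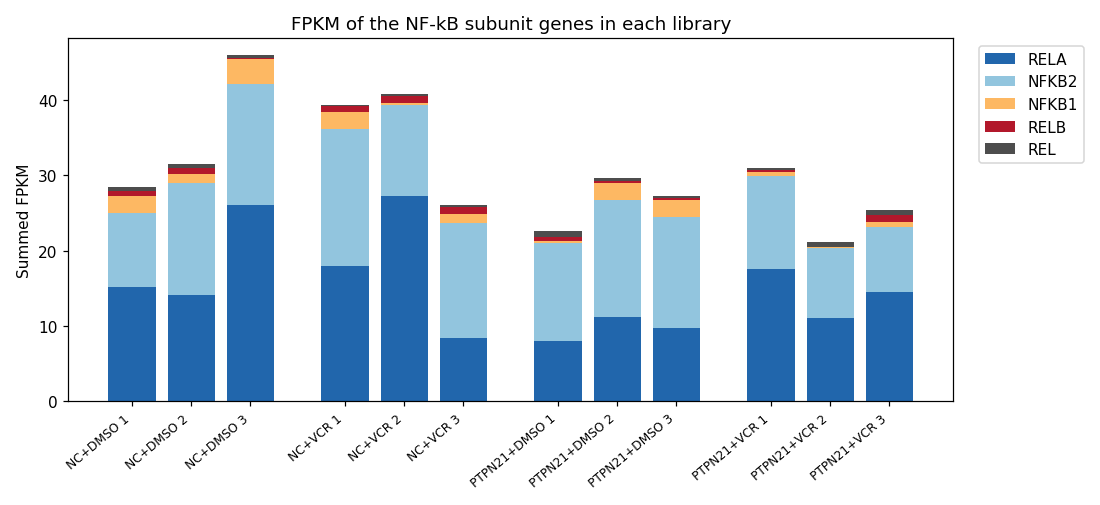
Summed FPKM (vertical axis) of the 5 NF-kB subunit genes in each of the 12 libraries, as stacked bars with a colour for each gene. The sums run from 21.1 to 46.0 FPKM, and RELA and NFKB2 fill nearly all of every bar.

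Among the inhibitors, NFKBIA, the IkB protein with the fastest turnover, averaged 17.3 FPKM and was the highest of the 10 genes. NFKBIB, a more stable IkB protein, averaged 13.3 FPKM, TNFAIP3, a ubiquitin-editing enzyme that shuts off signalling to IKK, 4.59 and NFKBIE, a further IkB protein, 4.2. BCL3, which binds NF-kB dimers of NFKB1 and NFKB2 products in the nucleus, averaged 0.739 FPKM. The spread between libraries differed between the genes. The highest library exceeded the lowest 16.3 times for NFKB1, 8.43 times for NFKBIE, 3.44 times for RELA and 2.87 times for NFKBIA, against 2.23 for TNFAIP3, 2.10 for NFKB2 and 2.09 for NFKBIB.

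The order of the 10 levels fell into the same upper and lower parts in each group. NFKBIA, RELA, NFKB2 and NFKBIB were the 4 highest in all 4 groups. In NC+DMSO, NC+VCR and PTPN21+VCR the ranges of neighbours among these 4 overlapped, so that their order was not settled, and the lowest of them lay above TNFAIP3 without overlap. In PTPN21+DMSO the order was clearer, since NFKBIA lay above NFKBIB and NFKB2 lay above RELA without overlap, while the range of RELA met that of NFKBIE. NFKBIE also changed place: it stood above TNFAIP3 without overlap in PTPN21+DMSO and below TNFAIP3 without overlap in NC+VCR and PTPN21+VCR. In NC+DMSO the ranges of these genes overlapped. NFKB1, RELB, REL and BCL3 were the 4 lowest in every group, and neighbours among them overlapped except NFKB1 above REL in NC+DMSO and RELB above REL in NC+VCR.

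**Figure D2:**
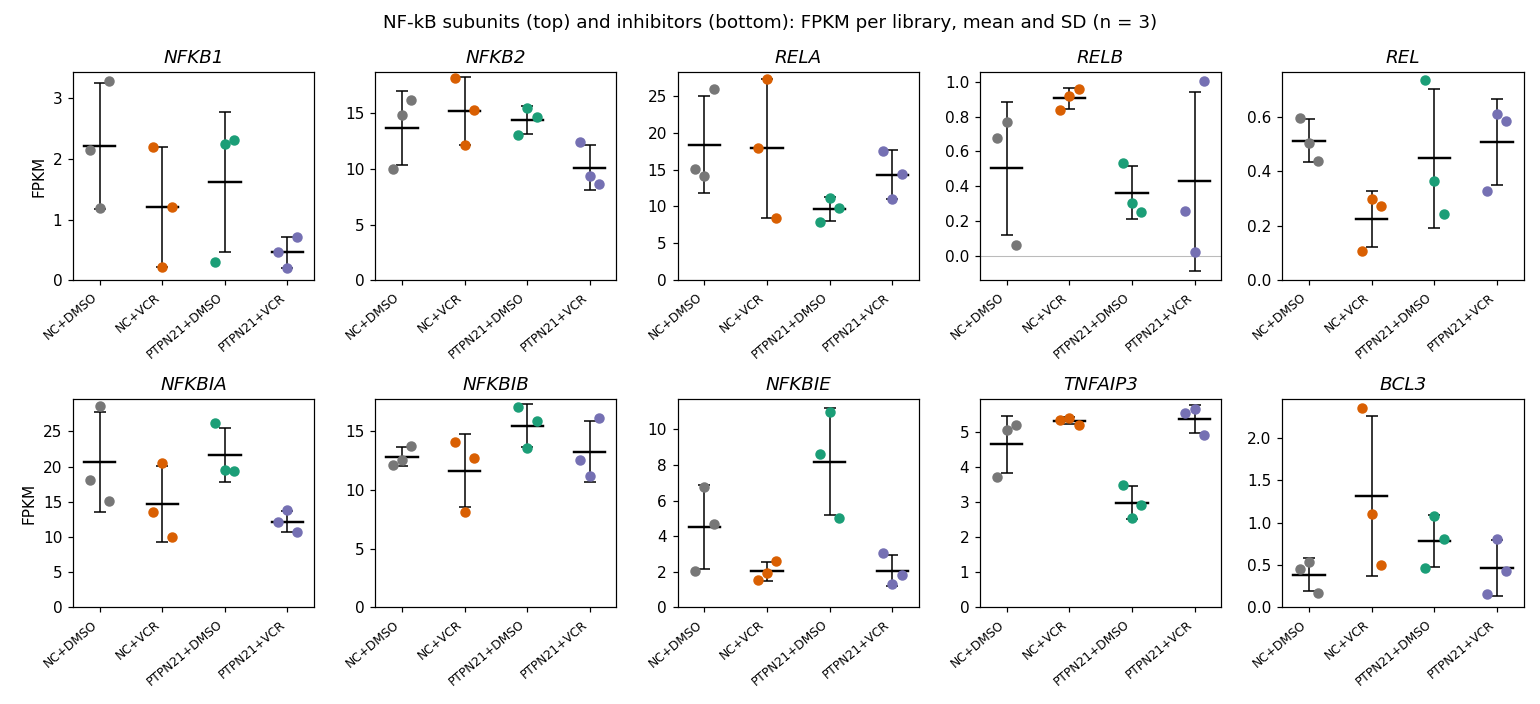
FPKM (vertical axes, each with its own scale) of the 5 subunit genes in the top row and of the inhibitors and BCL3 in the bottom row, in the 4 groups. Each point is a library, the thick line is the mean and the bar is the SD (n = 3); for NFKBIE and NFKBIA all PTPN21+VCR points lie below all PTPN21+DMSO points, and for TNFAIP3 all lie above.

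With the values as deposited and all 12 libraries, PTPN21+VCR against PTPN21+DMSO was the only comparison in which any of the 7 tested genes passed. NFKBIE and NFKBIA were lower and TNFAIP3 was higher in PTPN21+VCR than in PTPN21+DMSO. These 3 of the 7 tested genes passed the threshold of adjusted p under 0.05 (limma across all 11591 genes), where 28.5% of all genes tested passed it, 9.22% higher and 19.3% lower. An unadjusted p under 0.05 (limma) was reached by 4 of the 7 and by 39.9% of all genes tested. Groups did not overlap for 4 of the 7 and for 50.4% of all genes tested. With only 7 genes, these counts do not set the members apart from all genes tested. The median of the log2 fold changes was -0.48 over the 7 genes and -0.17 over all genes.

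NFKBIE was at 8.59, 10.98 and 5.01 FPKM in the libraries of PTPN21+DMSO and at 3.03, 1.30 and 1.84 in those of PTPN21+VCR. All libraries with VCR lay below all with DMSO, and the means were 2.06 ± 0.885 against 8.19 ± 3.0 FPKM (SD, n = 3). On the log2(FPKM + 1) scale, which understates changes of low genes, it fell by 1.57 (SE 0.362, 95% interval -2.36 to -0.78, limma adjusted p = 0.00702). Only 2.40% of the genes tested had a lower fold change. The call held in all 8 alternative fits that could include NFKBIE and in all 12 fits that left out 1 library, with adjusted p from 0.00376 to 0.0341 in the latter.

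TNFAIP3 was at 3.50, 2.54 and 2.93 FPKM in PTPN21+DMSO and at 5.54, 5.67 and 4.93 in PTPN21+VCR. Every library with VCR was above every library with DMSO, with means of 5.38 ± 0.398 against 2.99 ± 0.481 FPKM (SD, n = 3). The log2 fold change was 0.68 (SE 0.184, 95% interval 0.28 to 1.08, limma adjusted p = 0.0162). The call was lost without some libraries: the adjusted p was 0.0644 without PTPN21+DMSO replicate 2, 0.0509 without replicate 3 of that group, 0.0527 without PTPN21+VCR replicate 1 and 0.0557 without replicate 2 of that group. In these 4 fits the log2 fold change lay between 0.60 and 0.67.

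NFKBIA was at 26.1, 19.5 and 19.4 FPKM in PTPN21+DMSO and at 12.1, 13.8 and 10.7 in PTPN21+VCR. These groups did not overlap either, at 12.2 ± 1.53 against 21.7 ± 3.84 FPKM (SD, n = 3). The log2 value fell by 0.78 (SE 0.267, 95% interval -1.36 to -0.20, limma adjusted p = 0.0464), just inside the threshold. The call was lost with no filter on low genes (adjusted p = 0.122), without the intensity trend (0.0571) and under median ratio scaling (0.159) or quantile normalization (0.162), where the log2 values were -0.60 and -0.57. It was also lost in 8 of the 12 fits that left out 1 library. Without PTPN21+DMSO replicate 1, 2 or 3 the adjusted p was 0.152, 0.0751 or 0.0761, and without PTPN21+VCR replicate 1, 2 or 3 it was 0.102, 0.0708 or 0.130. Without NC+DMSO replicate 1 it was 0.0579 and without NC+VCR replicate 1 it was 0.0551, each with the same fold change.

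NFKB2 was at 13.1, 15.5 and 14.7 FPKM in PTPN21+DMSO and at 12.4, 9.34 and 8.65 in PTPN21+VCR. The groups did not overlap, but the log2 fold change of -0.48 (SE 0.212) missed the threshold at an adjusted p of 0.109 (limma). RELA was at 7.92, 11.2 and 9.76 FPKM in PTPN21+DMSO and at 17.6, 10.98 and 14.4 in PTPN21+VCR, with overlap between the groups. Its log2 fold change of 0.52 (95% interval -0.25 to 1.29) had an adjusted p of 0.301. NFKB1 (-0.74) and NFKBIB (-0.22) also missed the threshold, with adjusted p of 0.221 and 0.461.

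The FPKM ratio of NFKBIA to RELA, the summed IkB level and the share of RELA are given as a description only and were not tested. They were not set against other pairs or sums of genes. Of single genes tested, 50.4% had groups that did not overlap in PTPN21+VCR against PTPN21+DMSO. NFKBIA exceeded RELA 1.75 to 3.30 times in PTPN21+DMSO, while in PTPN21+VCR the ratio was 0.688 to 1.26. In the control cells the ratio was 0.584 to 2.03 with DMSO and 0.754 to 1.19 with VCR, ranges that overlapped. The summed level of NFKBIA, NFKBIB and NFKBIE was 40.3 to 51.8 FPKM in PTPN21+DMSO and 26.2 to 28.7 in PTPN21+VCR. In control cells it was 32.4 to 48.0 FPKM with DMSO and 25.3 to 30.7 with VCR, again without overlap. The share of RELA among the subunits was 35.1 to 37.7% in PTPN21+DMSO and 51.9 to 56.9% in PTPN21+VCR. In control cells it was 44.9 to 56.5% with DMSO and 32.2 to 66.8% with VCR, ranges that overlapped, and the mean was lower with VCR.

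In control cells, none of the 7 tested genes passed the threshold between NC+VCR and NC+DMSO, and none had an unadjusted p under 0.05 (limma), where 36.2% of all genes tested passed the threshold (7.91% higher and 28.3% lower) and 46.4% had an unadjusted p under 0.05. The 7 genes had a median log2 fold change of -0.16, against -0.36 over all genes tested. Only TNFAIP3 had groups that did not overlap, which held for 44.1% of all genes tested.

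NFKBIE was at 2.07, 6.79 and 4.67 FPKM in NC+DMSO and at 1.56, 1.94 and 2.61 in NC+VCR. The lowest DMSO library lay within the range of the VCR libraries, and the log2 fold change was -0.77 (SE 0.362, 95% interval -1.56 to 0.01, limma adjusted p = 0.114). Without NC+DMSO replicate 1, the library at 2.07, the log2 fold change was -1.14 and the adjusted p 0.0281. NFKBIA was at 18.2, 28.6 and 15.2 FPKM in NC+DMSO and at 13.6, 20.6 and 10.0 in NC+VCR. These groups overlapped, with a log2 fold change of -0.47 (95% interval -1.05 to 0.11) and an adjusted p of 0.186.

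TNFAIP3 was at 3.72, 5.05 and 5.20 FPKM in NC+DMSO and at 5.36, 5.41 and 5.20 in NC+VCR. The highest DMSO library lay just below the lowest VCR library, and the log2 fold change was 0.17 (95% interval -0.23 to 0.57, limma adjusted p = 0.486). Under quantile normalization, which brought the median of all genes in this comparison to -0.02, it was 0.58 with a limma adjusted p of 0.0372. Median ratio scaling brought that median to -0.03, and TNFAIP3 did not pass there. Of the 8 alternative settings that could include TNFAIP3, it passed in 1.

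The subunits and NFKBIB were spread widely in the control cells. RELA was at 15.1, 14.1 and 26.0 FPKM in NC+DMSO and at 18.0, 27.3 and 8.42 in NC+VCR, so that the VCR group enclosed the DMSO group. NFKB2 was at 9.97, 14.9 and 16.2 FPKM in NC+DMSO and at 18.2, 12.1 and 15.3 in NC+VCR. The groups of NFKB1 (2.15, 1.20 and 3.28 against 2.20, 0.221 and 1.21 FPKM) and NFKBIB (12.2, 12.6 and 13.7 against 14.1, 8.17 and 12.7 FPKM) overlapped as well. In log2 units the differences were -0.13 for RELA, 0.15 for NFKB2, -0.59 for NFKB1 and -0.16 for NFKBIB, with adjusted p of 0.804, 0.598, 0.293 and 0.566 (limma). The signs for RELA and NFKBIB turned under median ratio scaling and quantile normalization.

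**Figure D3:**
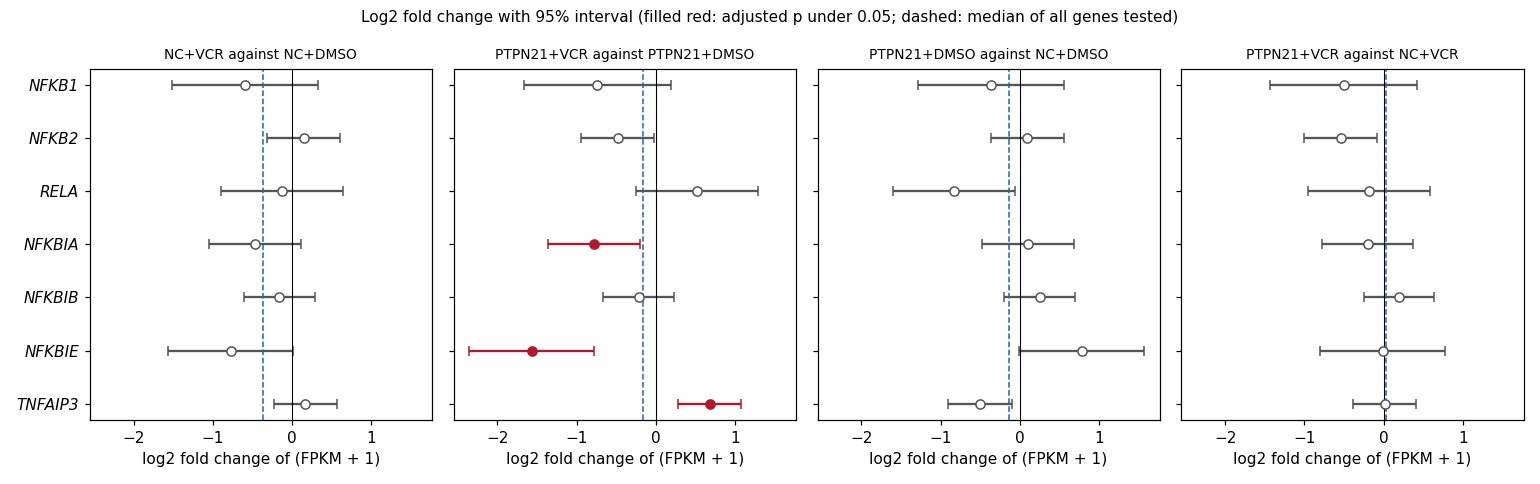
Log2 fold change of FPKM + 1 (horizontal axis) with its 95% interval for the 7 tested genes in the 4 comparisons of 2 groups. Filled red points passed an adjusted p under 0.05 and the dashed line is the median of all 11591 genes; only NFKBIA (-0.78), NFKBIE (-1.57) and TNFAIP3 (0.68) are filled, all in PTPN21+VCR against PTPN21+DMSO.

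Whether the response to VCR differed between the constructs was tested as the interaction of PTPN21 and VCR. None of the 7 genes passed it and none had an unadjusted p under 0.05 (limma), and it called 15 genes, or 0.129% of all genes tested, while 14% had an unadjusted p under 0.05. The difference in log2 response was -0.80 for NFKBIE (95% interval -1.91 to 0.32, adjusted p = 0.490), 0.51 for TNFAIP3 (-0.06 to 1.08, adjusted p = 0.395) and -0.31 for NFKBIA (-1.13 to 0.51, adjusted p = 0.733). For NFKB2 it was -0.63 (-1.29 to 0.02, adjusted p = 0.366) and for RELA 0.64 (-0.44 to 1.73, adjusted p = 0.570). NFKB1 (-0.14) and NFKBIB (-0.06) had adjusted p of 0.933 and 0.944. The calls in PTPN21 cells are therefore not shown to differ from the values in control cells, and the intervals leave room for differences of either sign.

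The effect of PTPN21 overexpression without drug was read from PTPN21+DMSO against NC+DMSO. None of the 7 genes passed the threshold, 2 had an unadjusted p under 0.05, and the same 2 had groups that did not overlap (limma). Over all genes tested, 6.34% passed, 25.6% had an unadjusted p under 0.05 and 33.4% had groups that did not overlap. RELA, with the values given above, averaged 9.62 ± 1.64 FPKM in PTPN21+DMSO and 18.4 ± 6.60 in NC+DMSO (SD, n = 3). Its log2 fold change was -0.83 (SE 0.354, 95% interval -1.60 to -0.06) with an unadjusted p of 0.0366 and an adjusted p of 0.166 in limma. TNFAIP3 averaged 2.99 ± 0.481 against 4.66 ± 0.811 FPKM, with a log2 fold change of -0.50 (SE 0.184), an unadjusted p of 0.0186 and an adjusted p of 0.117 in limma.

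NFKBIE leaned the other way, at 8.19 ± 3.0 in PTPN21+DMSO and 4.51 ± 2.36 FPKM in NC+DMSO, with overlapping groups. Its log2 fold change was 0.78 (95% interval -0.0042 to 1.57, limma adjusted p = 0.197). NFKBIA (0.10), NFKBIB (0.25), NFKB2 (0.10) and NFKB1 (-0.36) had adjusted p between 0.474 and 0.844. The comparisons that use PTPN21+DMSO share these 3 libraries, which had the lowest mean for TNFAIP3 and RELA and the highest for NFKBIE and NFKBIA. The VCR comparison in PTPN21 cells is thus not independent of this one.

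Between the constructs under VCR, PTPN21+VCR against NC+VCR, the means of the inhibitors lay close together. NFKBIE averaged 2.06 ± 0.885 against 2.04 ± 0.532 FPKM, TNFAIP3 5.38 ± 0.398 against 5.32 ± 0.105 and NFKBIA 12.2 ± 1.53 against 14.7 ± 5.37 (SD, n = 3). On the log2 scale NFKBIE differed by -0.01 (95% interval -0.80 to 0.77), TNFAIP3 by 0.01 (-0.39 to 0.41) and NFKBIA by -0.20 (-0.78 to 0.38), and in limma their adjusted p were 0.991, 0.985 and 0.753. None of the 7 genes passed the threshold and none had groups without overlap, against 1.82% and 22.5% of all genes tested. NFKB2 alone had an unadjusted p under 0.05 (limma; 17.1% of all genes tested), with a log2 fold change of -0.54 (95% interval -1.0 to -0.08, adjusted p = 0.214). It averaged 10.1 ± 1.99 FPKM in PTPN21+VCR and 15.2 ± 3.03 in NC+VCR, and the highest PTPN21+VCR library (12.4) met the lowest NC+VCR library (12.1). RELA (-0.19), NFKB1 (-0.51) and NFKBIB (0.19) had adjusted p of 0.845, 0.599 and 0.687.

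RELB, REL and BCL3 averaged under 1 FPKM and were left out of the test by the filter. RELB was at 0.674, 0.770 and 0.0614 FPKM in NC+DMSO, 0.840, 0.918 and 0.957 in NC+VCR, 0.535, 0.305 and 0.250 in PTPN21+DMSO and 0.259, 0.0189 and 1.00 in PTPN21+VCR. The 3 NC+VCR libraries were close together and above all libraries of the DMSO groups, while PTPN21+VCR spread from nearly 0 to the highest of all values. Between NC+VCR and NC+DMSO, groups did not overlap for 44.1% of all genes tested. No such share was taken for genes below the filter.

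REL was at 0.595, 0.504 and 0.438 FPKM in NC+DMSO, 0.105, 0.298 and 0.271 in NC+VCR, 0.733, 0.366 and 0.242 in PTPN21+DMSO and 0.326, 0.609 and 0.585 in PTPN21+VCR. All NC+VCR libraries lay below all NC+DMSO libraries, a comparison where 44.1% of all genes tested had groups that did not overlap. BCL3 was at 0.455, 0.537 and 0.172 FPKM in NC+DMSO, 2.35, 1.11 and 0.498 in NC+VCR, 0.467, 1.08 and 0.807 in PTPN21+DMSO and 0.154, 0.813 and 0.426 in PTPN21+VCR, with overlap between each pair of groups compared. Without the filter, over 28170 genes, none of these 3 passed in any of the 5 comparisons (limma), with adjusted p from 0.196, for BCL3 in NC+VCR against NC+DMSO, to 1. At these levels, differences may not have been detectable at this depth.

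The genes whose levels ran most alike to those of the 3 called genes were found by Pearson correlation of log2(FPKM + 1) over the 12 libraries, which share their 4 groups. They were C1orf50 (r = 0.955) and GLRX5 (0.938) for NFKBIE, SEPTIN6 (0.915) and ERCC3 (0.902) for TNFAIP3, and HMOX2 (0.923) and FAM174C (0.920) for NFKBIA. They are given as a description only.

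The wider pathway was read from 5 lists of 99 genes, of which 70 were tested. Under VCR, 7 rose and 18 fell in control cells, and 11 rose and 13 fell in PTPN21 cells (limma adjusted p under 0.05). Together these were 25 and 24 of the 70, near the 36.2% and 28.5% of all genes tested, so the counts do not set the pathway apart. For the lists below, the shares over all genes tested were 7.91% higher and 28.3% lower in control cells and 9.22% higher and 19.3% lower in PTPN21 cells. A gene that passed with 1 construct only is not shown to differ between them, since none of the 70 passed the interaction. The median log2 fold change of the 70 was -0.30 in control cells and -0.06 in PTPN21 cells, against -0.36 and -0.17 over all genes tested. The counts in control cells followed the scaling, since 14 rose and 7 fell under median ratio scaling and 13 rose and 7 fell under quantile normalization, which set the median of all genes near 0. In PTPN21 cells 16 rose and 10 fell, and 18 rose and 10 fell, under the same settings. None of the 70 passed in PTPN21+DMSO against NC+DMSO, in PTPN21+VCR against NC+VCR or in the interaction (limma).

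Of the IKK complex and the kinases above it, which start the degradation of IkB proteins, 14 of 15 genes were tested. On the FPKM scale none rose, 8 fell in control cells and 3 fell in PTPN21 cells, with medians of -0.60 and -0.26 against -0.36 and -0.17 over all genes. The 3 of 14 in PTPN21 cells are close to the 19.3% of all genes that were lower there. Under both median ratio scaling and quantile normalization, 3 fell in control cells, while 2 rose and 2 fell in PTPN21 cells. The 2 that rose were the kinases CHUK (0.73 and 0.77) and MAP3K7 (0.78 and 0.80), named after their values were seen. As deposited they were at 0.58 and 0.61 in PTPN21 cells and missed the threshold (limma adjusted p = 0.138 and 0.0707). IKBKB, another kinase of the list, was at 0.03 there and at -0.50 in control cells (adjusted p = 0.929 and 0.0503). IKBKG, the regulatory subunit of IKK, fell by 0.78 on the log2 scale in control cells (limma adjusted p = 0.0242), from 7.64 ± 1.99 to 3.98 ± 0.822 FPKM, and was at -0.51 in PTPN21 cells (0.129). TAB2 and TAB3, which link ubiquitin chains to the kinase TAK1, fell by 1.35 and 1.22 in control cells (adjusted p = 0.00399 and 0.00577), and were at -0.29 and -0.22 in PTPN21 cells (0.486 and 0.597). MAP3K8, a kinase held by the NFKB1 precursor, fell by 0.94 in control cells and by 1.67 in PTPN21 cells (adjusted p = 0.0244 and 0.00129), from 28.3 ± 8.72 to 8.25 ± 3.19 FPKM in the latter. Under median ratio scaling IKBKG and MAP3K8 missed the threshold in control cells (adjusted p = 0.216 and 0.138), and under quantile normalization as well (0.307 and 0.115), with the same direction. The kinase IKBKE fell by 1.59 in PTPN21 cells (adjusted p = 0.0275) and was at -1.25 in control cells (0.0595).

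Among 14 tested of 17 other IkB-related genes and negative regulators, 2 fell in control cells, below the 28.3% of all genes, and 2 rose and 3 fell in PTPN21 cells, near the 9.22% and 19.3% of all genes. TNIP1, a ubiquitin-binding partner of TNFAIP3, fell by 1.15 in control cells and by 1.73 in PTPN21 cells (limma adjusted p = 0.000707 and 5.09e-05). It was at 72.8 ± 6.55 FPKM in NC+DMSO and 33.2 ± 10.6 in NC+VCR, and at 73.7 ± 2.95 in PTPN21+DMSO and 21.6 ± 1.25 in PTPN21+VCR. In PTPN21 cells TNFAIP3 thus rose while TNIP1 fell. TAX1BP1 and ITCH, which work with TNFAIP3 in the same ubiquitin-editing complex, rose by 0.51 and 0.96 there (adjusted p = 0.0220 and 0.0411), but both missed the threshold under TPM scaling, TAX1BP1 narrowly and ITCH at an adjusted p of 0.0553. In control cells they were at 0.38 and 0.57 (adjusted p = 0.0605 and 0.180). These 2 genes do not describe the complex as a whole, which was not tested. RNF11, another tested gene of this list, was at -0.14 in PTPN21 cells and -0.29 in control cells (limma adjusted p = 0.776 and 0.472).

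Of the adaptors and ubiquitin machinery, 19 of 21 genes were tested, with 2 higher and 3 lower in control cells and 3 higher and 3 lower in PTPN21 cells. The lower counts are below the 28.3% of all genes in control cells and near the 19.3% in PTPN21 cells. CUL1, the scaffold of the ligase that ubiquitinates phosphorylated IkB proteins, rose by 0.71 in control cells and by 1.04 in PTPN21 cells (limma adjusted p = 0.00371 and 0.000413). MYD88, the adaptor of Toll-like and interleukin 1 receptors, fell by 2.21 in control cells (adjusted p = 0.00207), from 25.2 ± 2.49 to 5.81 ± 4.14 FPKM. In PTPN21 cells it was at -0.96 (adjusted p = 0.110), with 14.7 ± 2.32 and 7.02 ± 0.800 FPKM. TRAF5, an adaptor of TNF family receptors, rose by 1.36 in PTPN21 cells (adjusted p = 0.000505), from 2.80 ± 0.210 to 8.78 ± 0.422 FPKM, and was at 0.46 in control cells (0.0925). SHARPIN, a subunit of the linear ubiquitin ligase, fell by 0.94 in control cells and by 1.13 in PTPN21 cells (adjusted p = 0.0102 and 0.00459), and missed the threshold in control cells under median ratio scaling and quantile normalization (0.114 and 0.0684).

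Only 6 of the 16 TNF family ligands and receptors reached the minimum, and TNF itself was listed at 0 in all 12 libraries. Of the 6, 1 rose and 2 fell in control cells and 1 fell in PTPN21 cells. LTBR, a receptor of the non-canonical pathway, fell by 0.71 in control cells and by 0.53 in PTPN21 cells (limma adjusted p = 0.00235 and 0.0151). TNFRSF1A, the main TNF receptor, rose by 0.92 in control cells (adjusted p = 0.00384), from 4.72 ± 0.780 to 9.79 ± 1.01 FPKM, and CD40 fell by 1.04 there (adjusted p = 0.0251). In PTPN21 cells they were at 0.25 and -0.73 (adjusted p = 0.379 and 0.109). The calls of LTBR were lost under median ratio scaling (adjusted p = 0.0917 and 0.0811) and quantile normalization (0.0684 and 0.0939), as was that of CD40 (0.105 and 0.196), each with the same direction.

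Of 30 textbook target genes of NF-kB, 17 were tested, and they moved in both directions. In control cells 4 rose and 3 fell, and in PTPN21 cells 6 rose and 3 fell, where 7.91% and 9.22% of all genes tested were called higher and 28.3% and 19.3% lower. CD44, a receptor for hyaluronan, rose from 0.438 ± 0.412 to 20.1 ± 8.85 FPKM in control cells and from 0.128 ± 0.127 to 29.04 ± 4.39 in PTPN21 cells, which is 3.84 and 4.73 in log2 units (limma adjusted p = 3.79e-06 and 1.22e-06). PLAU, the urokinase plasminogen activator, rose by 1.97 and 1.94 (adjusted p = 2.54e-05 and 2.55e-05). BCL2L1, which encodes the survival protein Bcl-xL, fell by 2.45 and 1.5 (adjusted p = 0.000111 and 0.00297), and CCND1, which encodes cyclin D1, fell by 1.35 and 1.75 (adjusted p = 0.000129 and 2.18e-05). These 4 genes passed in the same direction under TPM, median ratio and quantile scaling. These genes respond to many factors besides NF-kB, and NF-kB activity was not measured.

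**Figure D4:**
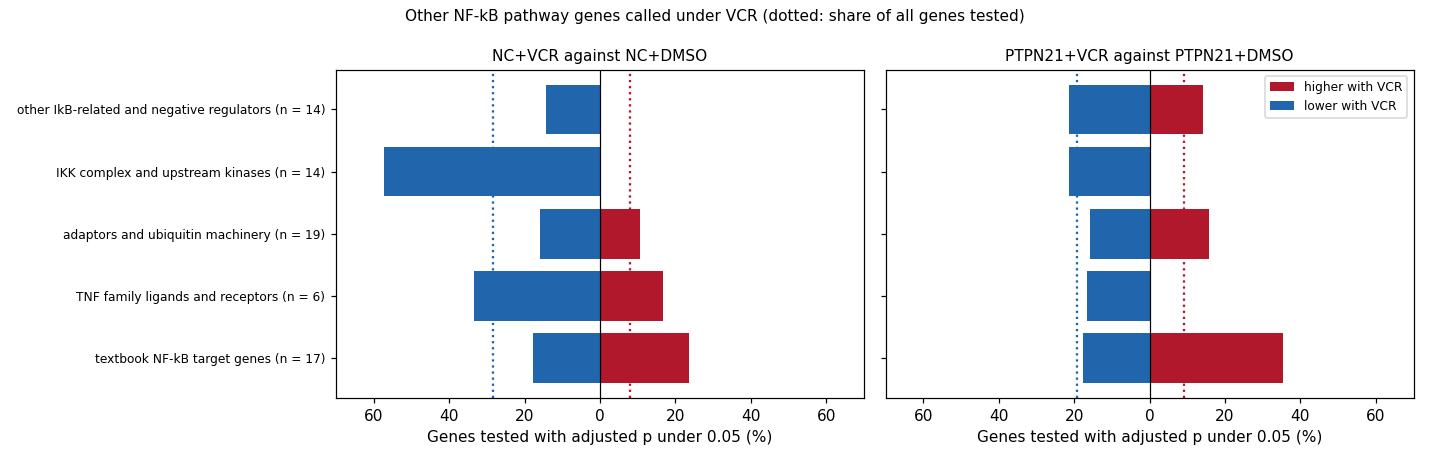
Share of the tested genes of each pathway list (horizontal axis, percent) with an adjusted p under 0.05 under VCR, lower to the left in blue and higher to the right in red, for control cells (left panel) and PTPN21 cells (right panel). The dotted lines are the shares of all genes tested (28.3% lower and 7.91% higher in control cells, 19.3% and 9.22% in PTPN21 cells), and on this scale no gene of the IKK list is higher in either panel (2 are in PTPN21 cells under median ratio scaling or quantile normalization).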

How the data were processed

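RNA-seq of 12 libraries (4 groups of 3) was analysed. The values are FPKM, which the authors deposited as 1 table after a company had processed the reads. Per the labels the processing notes name fastp, Bowtie2 and the build mm10, a mouse build, although the gene identifiers are human. The counting program and annotation are not given in the sources used here, and the table holds no counts, so intervals from counting are not given. Groups came from the labels, and each column was assigned by its name.

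Genes with a mean of at least 1 FPKM over the 12 libraries were tested on the log2(FPKM + 1) scale. A limma 3.58.1 model (R 4.3.3) of the 4 group means used an intensity trend, with Benjamini-Hochberg adjustment across 11591 genes and a threshold of 0.05. The fit was checked on simulated data. The members and pathway lists were chosen with earlier results of these data known. The rule named all 10 members, and up to 2 higher and 2 lower genes per list and comparison, of which some are left out. IKBKG, IKBKB, CHUK, MAP3K7, RNF11, HBG1, GATA1, KRT8 and PTPRC were added after their values were seen. Alternatives were a pseudocount of 0.1, other filters, TPM, median ratio and quantile scaling, no trend, only the groups compared, a replicate block and leaving out each library. Tables and plots used Python 3.11.15, pandas 2.3.3 and matplotlib 3.10.9.

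Libraries with the same replicate number did not deviate together: over 18 pairs the correlation of their deviations from the group means was -0.15 to 0.06, so the fit had no block.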

Additional observations from a re-analysis of the deposited data

How the results depend on the processing

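Over the 7 tested genes and 5 comparisons, 278 of 293 values under other settings and 382 of 420 values with 1 library left out kept their direction and their side of the threshold. The called members numbered 3 in PTPN21+VCR against PTPN21+DMSO, and 1 to 3 with 1 library left out. With the filter set to 5 FPKM they numbered 1, since NFKBIE and TNFAIP3 fell below the filter and NFKBIA remained. With no filter, no trend, median ratio scaling or quantile normalization, NFKBIA lost its call, while NFKBIE and TNFAIP3 kept theirs. In NC+VCR against NC+DMSO the called members numbered 0, 1 under quantile normalization (TNFAIP3) and 0 to 1 with 1 library left out. The other 3 comparisons called 0 of the 7 in each alternative run. Over all genes, leaving out 1 library gave 3224 to 4024 calls in NC+VCR against NC+DMSO, 2353 to 3619 in PTPN21+VCR against PTPN21+DMSO, 67 to 1345 (735 with all libraries) in PTPN21+DMSO against NC+DMSO, 43 to 354 (211 with all) in PTPN21+VCR against NC+VCR and 7 to 30 (15 with all) in the interaction. The extremes were 67 without PTPN21+DMSO replicate 1, 1345 without NC+DMSO replicate 2, 43 without PTPN21+VCR replicate 2, 354 without NC+DMSO replicate 3, 7 without NC+DMSO replicate 1 and 30 without NC+DMSO replicate 2. With only the groups compared, the counts were 2674 in NC+VCR against NC+DMSO (4192 in the fit of all groups), 40 in PTPN21+DMSO against NC+DMSO and 117 in PTPN21+VCR against NC+VCR. This setting cannot be run for the interaction. With no filter they were 177, 118 and 8, and with no trend 321, 72 and 9, in PTPN21+DMSO against NC+DMSO, PTPN21+VCR against NC+VCR and the interaction. The filter at 5 FPKM gave 344 and 8 in the last 2 of these, and median ratio scaling gave 130 in PTPN21+VCR against NC+VCR. The replicate block gave 242, 74 and 8 in those 3 comparisons and changed no call of the 7 genes. The replicate numbers are not said to pair the libraries. Apart from the smaller number of samples or other genes tested, the cause was not tested.

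Directions turned only for values that passed no test. In NC+VCR against NC+DMSO, median ratio scaling put RELA at 0.25 and NFKBIB at 0.21, and quantile normalization put them at 0.16 and 0.20. Under TPM scaling, NFKB2 and NFKBIA were at -0.044 and -0.038 in PTPN21+DMSO against NC+DMSO, TNFAIP3 at -0.042 in PTPN21+VCR against NC+VCR and NFKBIB at 0.025 in the interaction. With median ratio scaling TNFAIP3 was at -0.0018 in PTPN21+VCR against NC+VCR, and with quantile normalization at -0.0068. With 1 library left out, the log2 fold changes that turned ranged from -0.046 to 0.29 for NFKB2, -0.48 to 0.31 for RELA and -0.30 to 0.059 for NFKBIB in NC+VCR against NC+DMSO. In PTPN21+DMSO against NC+DMSO the ranges were -0.61 to 0.085 for NFKB1, -0.10 to 0.22 for NFKB2 and -0.083 to 0.35 for NFKBIA. In PTPN21+VCR against NC+VCR they were -0.62 to 0.17 for RELA, -0.43 to 0.052 for NFKBIA, -0.025 to 0.33 for NFKBIB, -0.23 to 0.17 for NFKBIE and -0.022 to 0.064 for TNFAIP3, and in the interaction -0.59 to 0.18 for NFKB1 and -0.28 to 0.082 for NFKBIB.

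Scaling moved the median of all genes. For NC+VCR against NC+DMSO this median was -0.36 as deposited, -0.49 with TPM, -0.03 with median ratio and -0.02 with quantile scaling, and the share of calls that were higher was 21.9%, 16.3%, 56.5% and 52.5%. In PTPN21+VCR against PTPN21+DMSO the medians were -0.17, -0.20, -0.02 and 0.00 and the shares 32.3%, 30.04%, 51.2% and 51.6%. In PTPN21+DMSO against NC+DMSO the shares were 41.8%, 21.0%, 76.0% and 54.5%, in PTPN21+VCR against NC+VCR 55.0%, 47.1%, 43.8% and 50.6%, and in the interaction 20%, 36.4%, 17.6% and 22.7%. The levels of RELB, REL, BCL3 and NFKB1 were near or below 1 FPKM, where depth may limit the values, which was not tested.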
